A study of Arabidopsis thaliana with 18 samples.

Results

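The middle stage of a course of 3 seed stages was compared with the mean of the stages before and after it, in seeds of Arabidopsis thaliana. For each probe set, a group of short array probes that report on a transcript or a few similar ones, the mean log2 signal at 8-9 d and 12-13 d after flower opening was subtracted from the mean at 10-11 d in each accession. The results for the accessions were averaged with equal weights. This value, called the averaged curvature, is positive where 10-11 d lies above the mean of both ends and negative where it lies below. All 18 of the 18 arrays of the series entered, 6 from 10-11 d and 12 from the ends, and 22746 probe sets were tested.

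The arrays held RNA of seeds dissected from siliques (seed pods) of 2 unmodified natural accessions, Col-0, the reference accession, and C24. There were 6 groups of 3 arrays, namely Col-0 at 8-9 d, 10-11 d and 12-13 d and C24 at the same stages, and the plants carried no transgene or treatment that the labels give. Each array read a pool of seeds from several plants. Since the same plants may have given seeds to more than 1 pool of a group, the p-values cover variation among pools and no more. Groups follow the titles, descriptions and accession characteristics, which match each other; the source name of each of the 18 samples names the opposite accession. Exchanging the names leaves the averaged curvature as it is and turns the sign of the difference between the accessions.

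In these days an Arabidopsis seed passes from growth into filling and maturation. Cell division in the embryo comes to an end, the endosperm has become cellular and is being consumed, and storage protein and oil are laid down. The seed coat makes flavonoid tannins and mucilage and later thickens and seals its walls with lignin-like and suberin-like polymers. A whole seed mixes these tissues, so fewer cells of a type and less RNA per cell cannot be told apart here.

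Replicate arrays had a Pearson's r between 0.993 and 0.997, and arrays from separate groups between 0.882 and 0.985. The mean over the probe sets of 4 endosperm marker genes was between 4.60 and 4.81 in each group, near the dim end of the scale. Limma's test called none of the 4 in the averaged curvature, with 1 at an unadjusted p under 0.05. Of 3 measured silique wall marker genes, which could report on remnants of the pod, YAB3, a YABBY transcription factor of lateral organs, had an averaged curvature of 0.23, called in the fit on all arrays but not without replicate 2 of C24 at 10-11 d (0.19, adjusted p = 0.051). ADPG1, a polygalacturonase of pod opening, was at -0.31 and ALC, a transcription factor of the same process, at 0.15, neither called. ADPG1 was called lower without replicate 3 of Col-0 at 10-11 d (-0.43) and without replicate 2 of Col-0 at 12-13 d (-0.38). The mean of the 3 wall markers was 5.88, 6.20 and 6.63 at the 3 stages in Col-0 and 6.33, 6.59 and 6.66 in C24.

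The averaged curvature was called, at an adjusted p under 0.05 from limma's moderated test, for 6246 probe sets, or 27.5% of those tested. Of these, 3016 (13.3%) were higher and 3230 (14.2%) lower at 10-11 d. Few sizes were large. Only 178 (0.783%) were higher and 88 (0.387%) were lower by at least 1 on the log2 scale. The SD of the averaged curvature over probe sets was 0.283, against 0.891 for the change from 8-9 d to 12-13 d, and the median was -0.01. When the arrays were scaled to a list of 12 reference genes, the split was 3693 higher and 2410 lower.

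A curvature has several shapes behind it. It is positive whenever the change from 8-9 d to 10-11 d (the first step) exceeds the change from 10-11 d to 12-13 d (the second step), so it also compares the sizes of the steps. The first step was called for 11501 probe sets (50.6%), up for 5440 (23.9%) and down for 6061 (26.6%), and scaling to the reference genes moved this split to 9063 and 4558. The difference 10-11 d minus 12-13 d was called for 8186 (36%), with 10-11 d higher for 4312 (19%) and lower for 3874 (17%). Scaling to the reference genes turned this balance to 3680 higher and 4702 lower, and centring on the array medians to 3846 and 4595. A peak, with 10-11 d called above both ends, held for 607 of all probe sets (2.67%), which were 20.1% of the 3016 higher calls. A trough held for 319 (1.4%), or 9.88% of the 3230 lower calls. The commonest shape among the higher calls was a rise in the first step with no call in the second, with 1110 probe sets (36.8%), and 645 more (21.4%) rose in both steps, the first being larger. Among the lower calls, 1589 (49.2%) fell in the first step with no call in the second and 793 (24.6%) fell in both. The shapes with the change in the second step were rarer, with 428 that held and then fell and 371 that held and then rose.

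**Figure D1:**
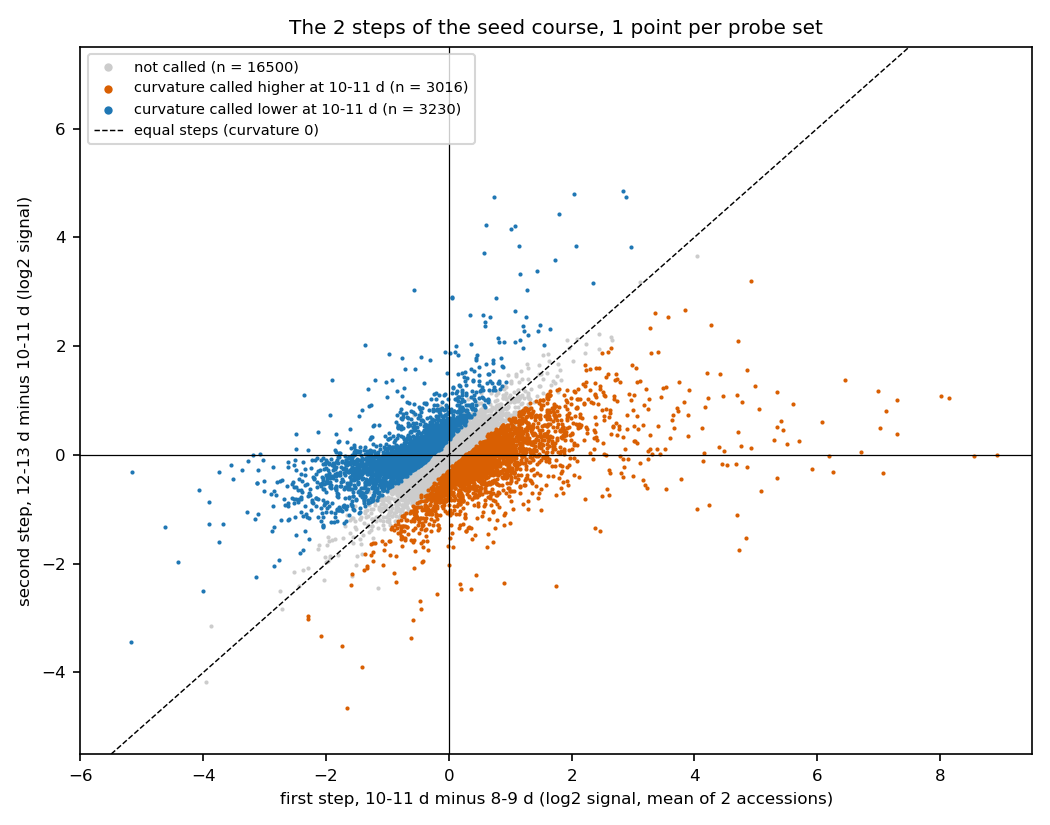
Each point is 1 of the 22746 probe sets, with the first step on the x axis and the second step on the y axis, both as log2 signal averaged over Col-0 and C24. Orange points (3016) have a called positive curvature and lie below the line of equal steps, blue points (3230) a called negative one and lie above it. The peaks are the orange points at the lower right and the troughs the blue points at the upper left.

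The highest averaged curvature of all, 4.46, belonged to a probe set that is not named here, and 101 of the 178 probe sets at 1 or more have 1 gene. The highest among those with 1 gene was AT4G38080, a member of the hydroxyproline-rich glycoprotein family of wall proteins, at 4.29 (SE 0.08, adjusted p = 6.97e-19). Its 3 Col-0 arrays read a log2 signal of 4.02, 3.74 and 4.03 at 8-9 d, 12.40, 12.29 and 12.59 at 10-11 d, and 12.87, 12.69 and 12.70 at 12-13 d. The C24 arrays read 4.01, 4.64 and 4.01, then 12.85, 12.99 and 12.71, then 12.54, 12.44 and 12.48. All 10-11 d arrays stood far above all 8-9 d arrays in both accessions, while at 12-13 d Col-0 was slightly higher than at 10-11 d and C24 slightly lower. The start was among the dimmest signals, where RMA shrinks differences.

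Among the other genes with the highest averaged curvature, AT1G19900 of the glyoxal oxidase family was at 3.45, AT1G74460 of the GDSL esterase and lipase family at 3.28, AT2G22510 and AT5G09480, both of hydroxyproline-rich protein families, at 3.26 and 3.10, and AT1G68850, a class III peroxidase, at 3.15. AT2G48130, of the lipid transfer protein family, was at 3.08, and AT3G60730, a pectin methylesterase that removes methyl groups from wall pectin, at 2.91. The first step of AT1G19900, AT1G74460, AT2G22510, AT1G68850, AT5G09480, AT2G48130 and AT3G60730 was a rise of 5.91 to 7.30 on the log2 scale. Only AT1G74460 among them had 10-11 d called above both ends, by 0.32 over 12-13 d. AT1G21540 and AT3G22620, also among the 10 highest, exceeded both ends without overlap.

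A stricter set is formed by genes whose 3 arrays at 10-11 d lay above all 6 end arrays in each accession. This held for 240 probe sets (1.06%), and 83 (0.365%) lay below all 6 in the same way. Its leading gene was AT1G21540, of the AMP-dependent synthetase and ligase family that activates acyl groups, at 3.19 (SE 0.06, adjusted p = 8.13e-19). In Col-0 it read 4.52, 4.71 and 4.51 at 8-9 d, 9.38, 9.33 and 9.59 at 10-11 d and 8.68, 8.37 and 8.34 at 12-13 d. In C24 it read 4.51, 4.77 and 4.54, then 9.56, 9.39 and 9.38, then 7.39, 7.31 and 7.34. The accessions were alike at the peak, and C24 had fallen further by 12-13 d.

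AT3G22620, of the lipid transfer protein family, was at 2.90 (SE 0.08, adjusted p = 1.22e-16). Its 10-11 d arrays read 10.74, 10.78 and 10.84 in Col-0 and 10.93, 10.81 and 10.93 in C24, against at most 10.04 in any end array of Col-0 and 9.53 in any of C24. AT1G72230, of the cupredoxin family of small copper proteins, was at 2.88, AT5G08250, a cytochrome P450, at 2.08, and AT4G36610, of the alpha/beta hydrolase family, at 1.92. The first step of AT3G22620, AT1G72230, AT5G08250 and AT4G36610 was 3.23 to 5.09, and 10-11 d exceeded 12-13 d by 0.60 to 1.10.

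CML41, a calmodulin-like calcium sensor, had the opposite balance and lay at 1.62 (SE 0.08, adjusted p = 2.29e-12). In Col-0 it read 6.43, 6.18 and 6.37 at 8-9 d, 7.66, 7.98 and 7.37 at 10-11 d, and 4.58, 4.69 and 4.66 at 12-13 d. In C24 it read 6.13, 6.24 and 6.24, then 6.50, 6.93 and 6.50, then 5.11, 4.87 and 4.96. The 10-11 d arrays were the highest in both accessions, the end was lower than the start, and the peak was taller in Col-0. AT2G45340, a leucine-rich repeat receptor-like kinase, behaved likewise at 1.32, with a first step of 0.44 and a fall of 2.21 after it. AT2G40435, related to basic helix-loop-helix factors, was at 1.86, and AT3G13660 of the dirigent-like family and AT4G01130 of the GDSL family were at 1.51 and 1.19.

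**Figure D2:**
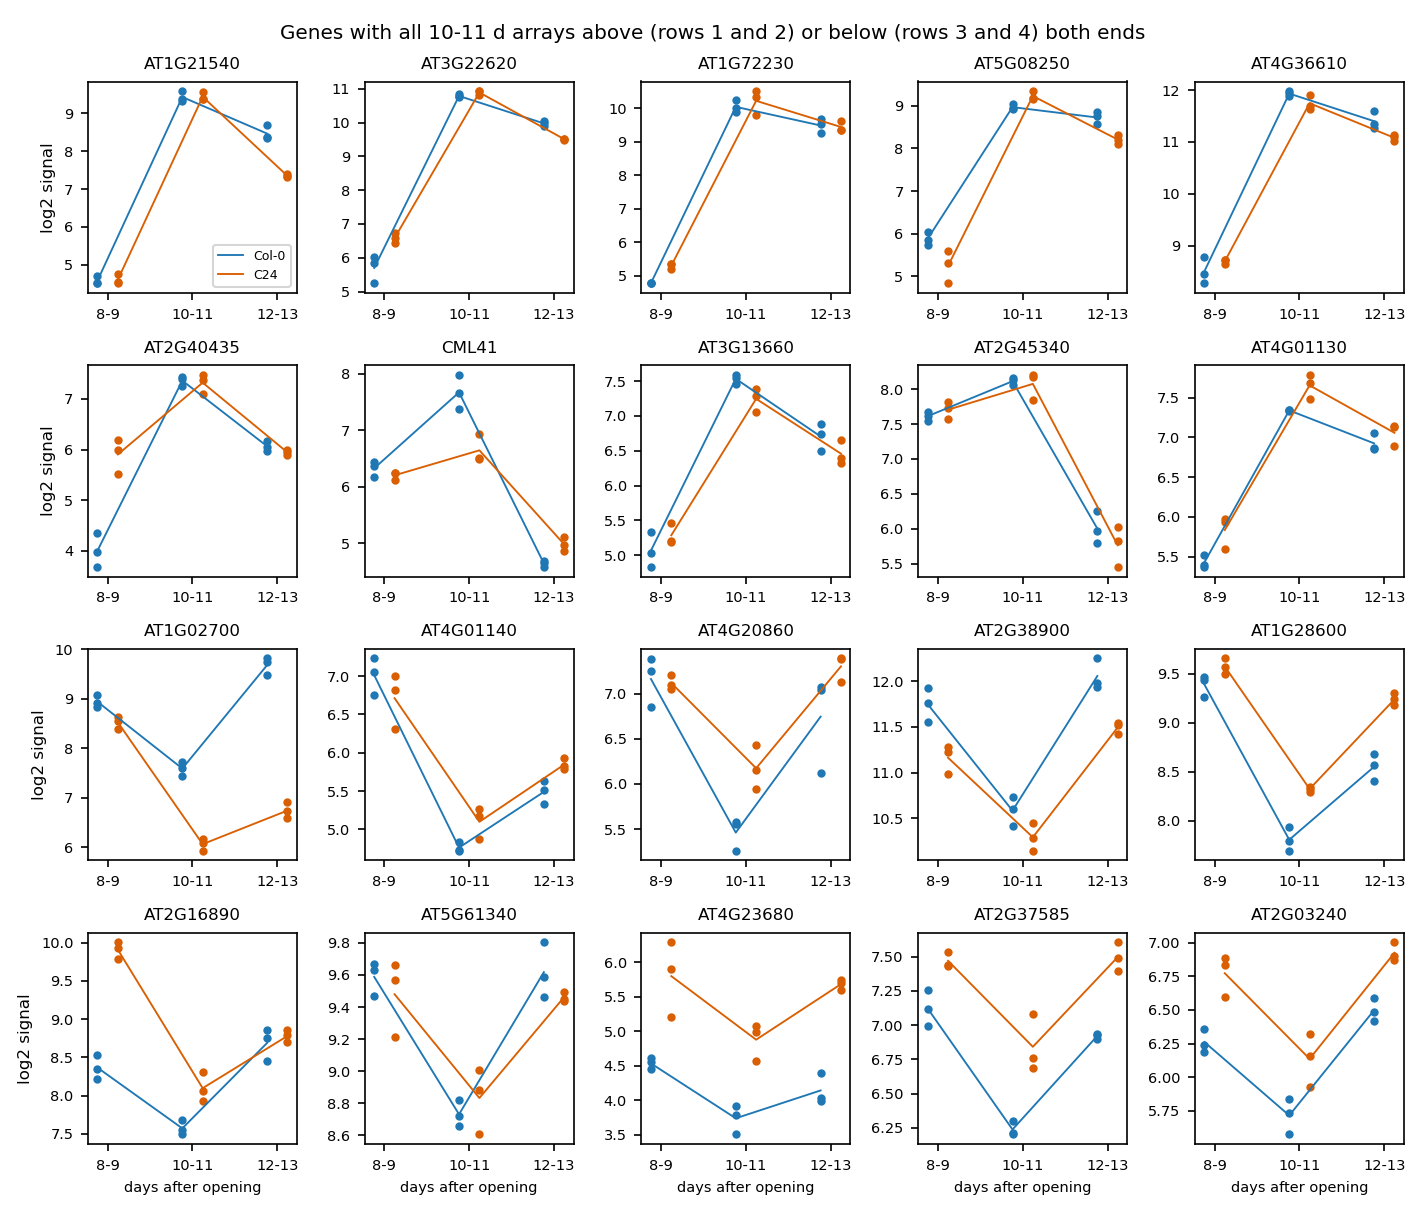
Log2 signal (y axis) of every array at the 3 stages (x axis, days after flower opening) for the 10 named genes with the highest and the 10 with the lowest averaged curvature among those whose 10-11 d arrays do not overlap either end. Points are arrays, lines join group means of 3, blue is Col-0 and orange C24. AT1G21540 stands at 9.33 to 9.59 at 10-11 d in both accessions, and AT1G02700 dips at 10-11 d in both although its end levels differ.

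Of the 88 calls of -1 or lower, 26 fell in both steps, 23 fell in the first with no call in the second, 23 were troughs, 13 rose in both steps and 3 rose in the second step alone. AT4G15750, of the pectin methylesterase inhibitor family, was the lowest at -2.42 (SE 0.13, adjusted p = 9.68e-12). Its Col-0 arrays read 11.96, 11.76 and 11.17 at 8-9 d, 5.94, 6.21 and 5.83 at 10-11 d and 5.54, 5.61 and 5.35 at 12-13 d. Its C24 arrays read 9.98, 10.24 and 10.69, then 6.09, 5.21 and 5.58, then 5.76, 5.41 and 5.26. The 8-9 d arrays stood apart in both accessions, and the later stages lay close together. AT3G60730, a member of the enzyme family that such inhibitors act on, was among the 10 highest.

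A first step downward also stood out in JMT, which methylates jasmonic acid (-1.65), AT1G50650 of the Stig1 family of small cysteine-rich proteins (-1.71), AT3G52550 (-1.67), AT5G48490 of the lipid transfer protein family (-1.52) and AT2G14690, a glycosyl hydrolase of the xylanase family (-1.42). The first step of these 5 genes lay between -4.62 and -3.11. The late risers were AT3G21380 of the jacalin-like mannose-binding lectin family (-1.81), cwINV6, a fructan exohydrolase named as a cell wall invertase (-1.42), and FACT, a fatty alcohol caffeoyl transferase of suberin-associated waxes (-1.38). AT3G21380 read 4.38, 4.54 and 4.59 in Col-0 and 5.06, 5.36 and 5.52 in C24 at 10-11 d, then 8.43 to 8.59 and 9.55 to 9.94 at 12-13 d. FACT was uneven within its groups at 10-11 d, with 7.27, 5.72 and 6.23 in Col-0 and 6.78, 8.50 and 9.00 in C24.

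AT1G02700 was the deepest named trough, at -1.64 (SE 0.07, adjusted p = 1.02e-13). In Col-0 it read 9.08, 8.91 and 8.83 at 8-9 d, 7.43, 7.61 and 7.73 at 10-11 d and 9.48, 9.74 and 9.81 at 12-13 d. In C24 it read 8.39, 8.62 and 8.56, then 6.09, 5.93 and 6.18, then 6.91, 6.73 and 6.60. The dip was present in both accessions, with recovery above the start in Col-0 and part of the way in C24.

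AT2G38900, a serine protease inhibitor of the potato inhibitor I family, dipped from a high level, at -1.18 (SE 0.07, adjusted p = 6.76e-11). It read 11.92, 11.76 and 11.56, then 10.60, 10.41 and 10.74, then 11.99, 11.93 and 12.25 in Col-0, and 10.98, 11.22 and 11.28, then 10.14, 10.44 and 10.29, then 11.54, 11.42 and 11.52 in C24. It returned to or above its starting level in both accessions. Other non-overlapping troughs were AT4G20860 of the berberine bridge enzyme family (-1.26), AT1G28600, another GDSL esterase or lipase (-1.12), AT2G16890 of the UDP-glycosyltransferase family (-1.10) and AT4G23680 of the Bet v 1-like family (-0.73). AT4G01140 (-1.33), AT5G61340 (-0.76), AT2G37585 (-0.71) and AT2G03240 (-0.69) completed the 10.

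GDSL esterases or lipases and lipid transfer proteins had named members at both ends of the ranking. Demanding a difference of at least 1 on the log2 scale from each end left 8 peaks and 7 troughs among all probe sets. The named peaks were AT1G21540, AT3G22620, AT2G40435 and AT1G25510, an aspartyl protease, and the named troughs petD of the plastid genome, AT2G38900, AT4G20860 and AT1G02700. AT1G25510 lay just inside the limit, at 1.04 over 8-9 d and 1.00 over 12-13 d.

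Among listed genes of seed filling, all 5 measured storage protein genes, of the cupin family, were called higher, with a median of 0.53. Of all probe sets, 13.3% were higher. AT1G03890, a cruciferin-like globulin, was at 1.59 (SE 0.20, adjusted p = 3.52e-06). In Col-0 it read 9.80, 7.96 and 10.22 at 8-9 d and 13.37 to 13.54 at both later stages, and in C24 11.39, 11.42 and 10.66 and then 13.54 to 13.65. Its second step was not called, and both later stages lay near the top of the scale, where differences may be compressed. Replicate 2 of Col-0 at 8-9 d was the lowest of its group for AT1G03890, and also for AT3G02480 and AT5G09480. PAP85, a vicilin-like globulin, was at 0.77, with its 10-11 d and 12-13 d arrays all between 13.30 and 13.48. AT2G28490 was at 0.53, AT2G18540 at 0.26. The call of AT2G18540 was lost without replicate 2 of Col-0 at 10-11 d (0.23, adjusted p = 0.0534 in limma). It was also lost without replicate 3 of C24 at 10-11 d (0.18, adjusted p = 0.0752 in limma).

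Late embryogenesis abundant (LEA) genes, whose hydrophilic proteins protect drying tissue, had 8 of 31 called higher and 4 lower, with a median of 0.03. Over all probe sets 13.3% were higher and 14.2% lower, so the lower LEA count lies near that share. Without replicate 1 of Col-0 at 10-11 d, and also on scaling to the reference genes, 2 LEA genes were lower. AT3G02480 (1.58) and LEA (AT2G21490, a dehydrin, 1.15) rose mostly in the first step, by 3.89 and 2.77. AT2G42560 rose mostly in the second, with a curvature of -0.36. Of 3 measured maturation transcription factors, 2 were higher. AGL67, a MADS-box factor of seed maturation, was at 1.43 and rose in both steps, and EEL, a bZIP factor of late embryo genes, was at 0.46, rising by 1.05 in the first step. BZIP53, which activates storage protein genes, rose in both steps with no called curvature (-0.08).

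Of 12 plastid fatty acid synthesis genes, 6 were higher and 1 lower, against 13.3% and 14.2% of all probe sets, with a median of 0.14. AT5G16240 and AT3G02630, both acyl-ACP desaturases that put the double bond into stearate, were at 0.38 and 0.34, and AT3G02630 had its highest level at 10-11 d in both accessions. Of 3 genes of oil storage, OLEO3, an oil body coat protein, peaked at 10-11 d with 13.12, 13.20 and 13.09 in Col-0 and 13.39, 13.36 and 13.34 in C24 (0.24, adjusted p = 2.98e-04). AT3G01570, also an oleosin, was at 0.16. Quantile normalization between the arrays brought OLEO3 to 0.15 and AT3G01570 to 0.08, at an adjusted p of 0.255. Among 5 glucosinolate genes 3 were higher, with AOP3, which modifies glucosinolate side chains, at 0.61 and GTR1, a transporter that imports glucosinolates into seeds, at 0.34. Both were peaks without overlap.

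Genes of cell division and of the early seed coat mostly had a negative curvature, with the larger fall in the first step. Of 37 listed genes of DNA replication and mitosis 6 could be matched to a named probe set. All 6 were lower, with a median of -0.65 against -0.01 over all probe sets, and 14.2% of all probe sets were lower. AUR1, an Aurora kinase of mitosis, was at -0.91 (SE 0.08, adjusted p = 1.92e-08). It read 8.76, 8.82 and 8.66, then 6.45, 6.61 and 6.11, then 5.47, 5.58 and 5.66 in Col-0, and 8.42, 8.22 and 8.48, then 5.95, 5.48 and 6.03, then 5.34, 5.30 and 5.42 in C24. The stages did not overlap in either accession, and the first fall was the larger. TOPII, a DNA topoisomerase, was at -0.88 and ICU2, the catalytic subunit of DNA polymerase alpha, at -0.36. The mean of the 6 genes was 7.16, 5.45 and 4.93 at the 3 stages in Col-0 and 6.94, 5.22 and 4.93 in C24. The last level lay near the dim end of the scale, where differences may be compressed, and its part in the curvature was not tested.

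Of 20 listed flavonoid and tannin genes 3 could be matched to a named probe set. All 3 were lower as well, with a median of -0.87. Over all probe sets 14.2% were lower. In C24 alone 2 of the 3 were called lower, where 11.9% of all probe sets were. DFR, the dihydroflavonol reductase, was at -0.99 (SE 0.06, adjusted p = 4.48e-11), falling from 10.30 to 10.56 at 8-9 d to 7.99 to 8.26 at 10-11 d in Col-0 and from 9.67 to 9.88 to 7.82 to 7.99 in C24. BAN, the anthocyanidin reductase of tannin synthesis, was at -0.87 and UGT80B1, a sterol glucosyltransferase, at -0.34. Of 20 listed mucilage and coat wall genes 3 could be matched to a named probe set. AT3G50990, a class III peroxidase (-0.79), and ARA12, a subtilisin-like protease (-0.34), were lower, and AT2G22900 was not called (-0.11).

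Of 8 measured light-harvesting and photosystem genes of the nucleus 4 were higher and none lower, against 13.3% and 14.2% of all probe sets. Their median was 0.15, and the 4 fell more in the second step than in the first. PSBW, a small photosystem II subunit (0.50), read 11.18, 11.17 and 11.07 at 10-11 d and 9.54, 9.68 and 9.86 at 12-13 d in Col-0, and 10.86, 10.77 and 10.93 and then 9.68, 9.61 and 9.39 in C24. PRK, the phosphoribulokinase of the Calvin cycle, was at 0.39, with a fall of 0.84 that came after 10-11 d. Of 4 chlorophyll synthesis genes 3 were lower, with a median of -0.46, and those 3 fell more in the first step, while CHLM, the fourth, was at 0.14 and not called. PORB, a protochlorophyllide reductase, fell by 2.32 and then by 1.09 and was at -0.62, and CHLI2, a subunit of magnesium chelatase, was at -0.61.

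Starch and sugar genes went both ways. APL3 and APL4, large subunits of ADP-glucose pyrophosphorylase in starch synthesis, were at -0.51 and -0.56. SWEET11, a sucrose exporter that feeds the embryo, was at 0.24, and SAG29 (SWEET15) at 0.36. Of 14 measured genes with a SWEET symbol 3 were higher and 3 lower, against 13.3% and 14.2% of all probe sets. Without replicate 1 of Col-0 at 12-13 d, 5 of the 14 were lower. SWEET1, a glucose transporter, had no called first step and was lower by 1.38 at 12-13 d than at 10-11 d (0.60), whereas SWEET4 rose by 0.79 after 10-11 d (-0.48).

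**Figure D3:**
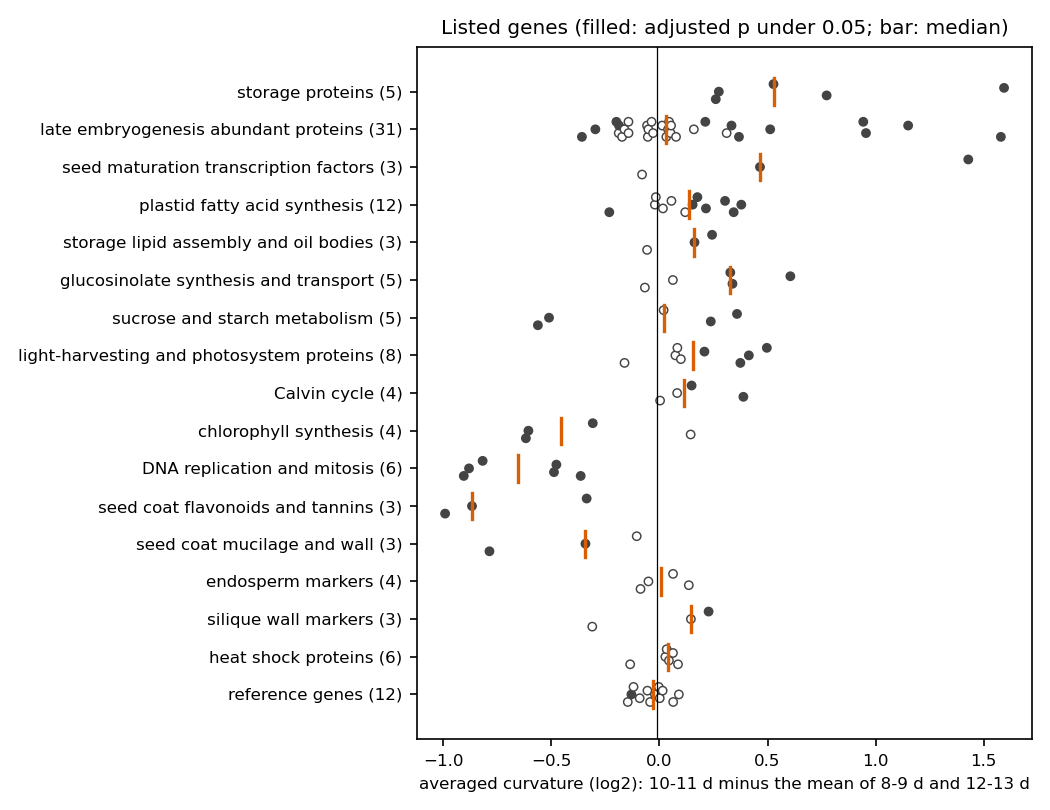
Averaged curvature (x axis, log2) of each measured member of 17 gene lists, with the number of probe sets in brackets. Filled points have an adjusted p under 0.05, orange bars are list medians and the black line is the median of all probe sets, -0.01. The storage protein points all lie to the right, and those of DNA replication and mitosis and of seed coat flavonoids all to the left.

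Among the wall and transferase families calls were a minority, as over all probe sets, where 13.3% were higher and 14.2% lower. Of 22 TRICHOME BIREFRINGENCE-LIKE genes, which acetylate wall polysaccharides and were listed after their values were seen, 6 were higher and 1 lower. TBL30 (1.70) and TBL45 (1.16) peaked at 10-11 d, and TBL38 was lower (-0.51). Of 9 xyloglucan endotransglucosylase genes, which cut and rejoin hemicellulose, 2 were higher, XTH32 at 1.00 and XTH16 at 0.81. EXPB1, a beta-expansin that loosens walls, peaked at 10-11 d (0.71), and 3 of 14 expansins were higher. Of 26 cytochrome P450s 5 were higher and 2 lower, with CYP78A9, known for promoting seed growth from the mother tissue, at 1.31. Of 47 UDP-glycosyltransferases 7 were higher and 6 lower, near the shares over all probe sets, and UGT74D1 (1.12) and UGT71B1 (1.08) peaked.

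Limma's test called none of 6 heat shock protein genes, 6 WRKY, 5 bHLH or 1 NAC transcription factor genes, with 1 of each list at an unadjusted p under 0.05. Of 42 probe sets of 40 AGAMOUS-like MADS genes 3 were higher and 1 lower, under the 13.3% and 14.2% of all probe sets. Of 12 reference genes, picked as stable controls, 1 was called, AT4G26410 at -0.13. Scaling to these genes, AT4G26410 included, took it to -0.09 (adjusted p = 0.193). The mean of the 12 was 7.43, 7.31 and 7.24 at the 3 stages in Col-0 and 7.39, 7.28 and 7.29 in C24. Among 7 genes named BZIP 3 were higher, and BZIP34 (0.37) and BZIP17 (0.28) led them. Of 7 calmodulin-like genes, listed after their values were seen, CML41 was the 1 called. Of 14 glutathione transferases 2 were higher and 2 lower, near the 13.3% and 14.2% of all probe sets, and 1 was lower without replicate 2 of Col-0 or of C24 at 10-11 d.

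Transcripts of the plastid genome were called lower more than higher. Of 69 measured plastid genes 26 were lower and 11 higher, with a median of -0.24, and 13 were troughs. Over all probe sets 14.2% were lower, 13.3% higher and 1.4% troughs, so the count of higher plastid genes lies near the background. For 1 of the 69, all 10-11 d arrays lay below both ends in each accession, and for 1 all lay above. Over all probe sets these shares were 0.365% and 1.06%. The array medians over the 69 genes overlapped. They were 7.88 to 8.36 at 10-11 d and 7.90 to 8.53 at 12-13 d in Col-0. In C24 they were 7.76 to 7.96 at 10-11 d and 7.77 to 8.36 at 8-9 d. The counts are a description, since genes read on the same arrays depend on each other. The 10 genes of the NADH dehydrogenase-like (ndh) complex, which carries cyclic electron flow, had a median of -0.62 with 6 lower and 1 higher. The 15 ribosomal protein genes had a median of -0.42 with 9 lower and 3 higher. The 15 photosystem II genes were spread around 0.07, with 3 lower and 3 higher (1 lower without replicate 1 or 2 of Col-0 at 10-11 d, replicate 2 of either accession at 12-13 d or replicate 3 of C24 at 8-9 d, and 1 higher without the first of these), and of 4 RNA polymerase genes 2 were lower.

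ndhE was the lowest plastid gene, at -1.15 (SE 0.19, adjusted p = 1.03e-04). In Col-0 it read 7.57, 7.44 and 7.42, then 7.04, 6.45 and 7.63, then 7.12, 8.14 and 8.40, and in C24 7.02, 7.49 and 7.17, then 5.01, 5.92 and 6.48, then 7.48, 7.72 and 7.90. The 10-11 d arrays were below both ends in C24, while in Col-0 they overlapped them. ndhG (-1.14), petD of the cytochrome b6f complex (-1.04), rps15 (-0.98) and rpl20 (-0.83), both ribosomal, and rpoC1 of the plastid RNA polymerase (-0.63) were also lower. rpl32 (0.56) and psbM of photosystem II (0.49) were higher, and so was atpE of the ATP synthase (0.41). atpB of the same complex was called at 0.44, but not under quantile normalization (0.32, adjusted p = 0.128), with the trended robust eBayes (adjusted p = 0.086) or without replicate 2 of Col-0 or replicate 1 or 3 of C24 at 10-11 d.

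Neighbours on the plastid genome could differ. By their consecutive locus numbers ndhE, ndhG, ndhI, ndhA and ndhH are neighbours, and their averaged curvatures were -1.15, -1.14, 0.17, 0.16 and -0.55. petB and petD are neighbours too, at 0.12 and -1.04. The control probes that compare the 3′ with the 5′ end of a transcript moved with stage. For actin, the 3′ minus 5′ log2 signal was 1.84, 1.29 and 0.93 at the 3 stages in Col-0 and 0.85, 0.43 and -0.28 in C24. For GAPDH it was 0.89, 1.28 and 1.77 in Col-0 and 0.94, 1.44 and 1.19 in C24. For ubiquitin it was 0.88, 0.52 and 0.44 in Col-0 and 0.94, 0.91 and 0.77 in C24. Their part in the plastid values was not tested.

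**Figure D4:**
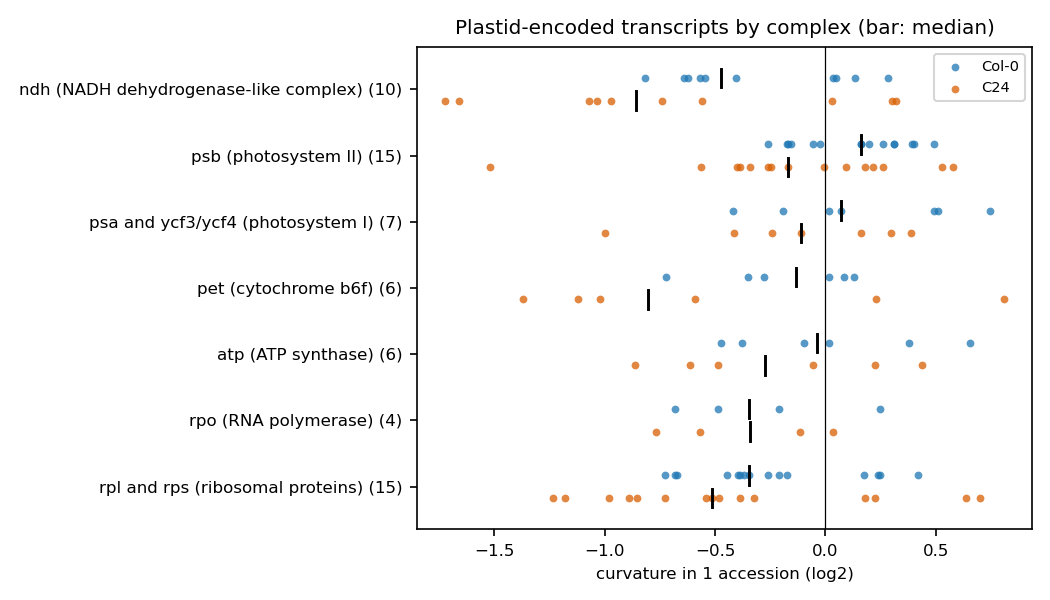
Curvature (x axis, log2) of each plastid-encoded transcript in Col-0 (blue) and C24 (orange), grouped by complex, with the number of genes in brackets and black bars for medians. Most ndh and ribosomal protein genes lie left of 0 in both accessions, and the photosystem II genes lie on both sides.

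Of 22 mitochondrial probe sets 6 were higher and 1 lower, against 13.3% and 14.2% of all probe sets, with a median of 0.09. nad9 of complex I was at 0.43 and cox1 of cytochrome oxidase at 0.37, and 3 probe sets of nad1 that were called disagreed in sign, at 0.23, 0.19 and -0.36. The count of higher calls fell to 2 without replicate 3 of Col-0 at 10-11 d, and likewise to 2 without replicate 1 or without replicate 2 of C24 at 10-11 d. In Col-0 alone 0 of the 22 were higher and 1 lower, with a median of -0.02. In C24 alone 8 were higher and 0 lower, with a median of 0.21, against 11.1% and 11.9% of all probe sets. The difference between the accessions was called for 2 of the 22, against 5.15% of all probe sets.

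Within each accession, the curvature was called for 3982 probe sets (17.5%) in Col-0, 2113 higher (9.29%) and 1869 lower (8.22%). In C24 it was called for 5219 (22.9%), 2515 higher (11.1%) and 2704 lower (11.9%). Of the higher calls, 1179 were shared, which is 55.8% of those of Col-0 and 46.9% of those of C24. Of the lower calls, 978 were shared, or 52.3% and 36.2%, and 89 probe sets were called in opposite directions. The curvatures in the accessions, which share no array, had a Pearson's r of 0.663 and a Spearman's rho of 0.426 over the probe sets, given as a description since genes depend on each other. On scaling to the reference genes the C24 split moved from 2515 higher and 2704 lower to 3444 and 1995.

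The plastid genes were lower in 6 of 69 cases in Col-0, near the 8.22% of all probe sets, and in 24 of 69 in C24, where 11.9% of all probe sets were lower. The difference between the accessions was tested on its own and was called for 1 of the 69, psbT of photosystem II, against 5.15% of all probe sets.

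How far the course had gone by 10-11 d was read from the probe sets that changed by at least 1 between 8-9 d and 12-13 d in the same direction in both accessions, a measure added after seeing the data. For 1124 risers, the median share of the rise reached by 10-11 d was 62.7%, 56.2% and 67.1% in the 3 Col-0 arrays and 72.5%, 74.3% and 72.4% in the C24 arrays. For 1414 fallers it was 57.0%, 52.1% and 66.3% in Col-0 and 67.3%, 70.9% and 72.7% in C24. All C24 arrays lay above all Col-0 arrays in both sets, by 11.1 and 11.9 percentage points on average. The exact two-sided permutation p was 0.1, the smallest that 3 against 3 arrays allow. Every share rests on the same end means of its accession, whose spread this p leaves out, so no conclusion is drawn from it. With a minimum change of 2 the means were 63.9% and 75.1% for risers and 59.0% and 69.5% for fallers.

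The difference in curvature between the accessions, C24 minus Col-0, was called for 1172 probe sets (5.15%), 573 higher (2.52%) and 599 lower (2.63%) in C24. In 728 of them the accessions had curvatures of opposite sign. The size was larger in C24 for 709 and in Col-0 for 463. The count depended on single arrays at 10-11 d. It was 600 without replicate 1 and 620 without replicate 2 of Col-0 at 10-11 d, and 707 without replicate 2 of C24 at 10-11 d. On scaling to the reference genes the split was 687 higher and 428 lower.

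AT1G14930, of the Bet v 1-like family, had a difference of 1.93 (SE 0.17, adjusted p = 2.31e-06). It read 3.87, 4.13 and 4.09, then 5.83, 5.57 and 6.07, then 10.57, 10.35 and 10.29 in Col-0, and 3.67, 3.69 and 3.63, then 7.42, 7.98 and 7.97, then 10.96, 10.88 and 10.70 in C24. The ends were close, and at 10-11 d the C24 arrays lay above the Col-0 arrays without overlap. AT2G18480, of the sugar transporter family (1.80), AT3G25855, of a copper-binding family (1.80), and AT1G30700, of the berberine bridge enzyme family (1.75), also read higher in every C24 array than in every Col-0 array at 10-11 d.

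AT1G75280, of the isoflavone reductase-like family, differed in shape, with a difference of 1.78 (SE 0.20, adjusted p = 1.83e-05). In Col-0 it dipped, with 10.54, 10.57 and 10.44, then 9.19, 9.24 and 9.40, then 9.94, 10.10 and 9.83. In C24 it read 8.84, 7.93 and 7.92, then 9.78, 9.77 and 9.64, then 9.58, 9.56 and 9.67. At 8-9 d every Col-0 array was above every C24 array, and at 10-11 d the order was the opposite.

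Among the 5 lowest, XTH16 peaked in Col-0 alone by its group means, with a difference of -1.46 (SE 0.20, adjusted p = 1.93e-04). It read 5.39, 5.62 and 5.74, then 6.92, 6.97 and 7.17, then 5.63, 4.99 and 5.48 in Col-0, and 6.83, 6.70 and 6.32, then 5.92 to 6.41 over the 3 arrays, then 5.67, 5.42 and 5.21 in C24. The Col-0 arrays at 10-11 d were above both ends, and the C24 levels went down through the course. AT3G27220, of the kelch repeat family (-1.69), was higher in the middle in Col-0 (0.95) and lower in the middle in C24 (-0.74).

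EXO, an extracellular protein of brassinosteroid-promoted growth, read 8.27 to 8.55 at 8-9 d over both accessions. At 10-11 d it read 8.01, 7.96 and 7.84 in Col-0 and 6.55, 5.98 and 5.77 in C24. Its difference was -1.77 (SE 0.20, adjusted p = 2.78e-05). AT1G62210 had the lowest difference, -1.96, and it started low in Col-0 only, at 8.55, 6.30 and 8.78, with a difference of -1.56 without the replicate at 6.30. Its call was lost with the trended robust eBayes (adjusted p = 0.0664). psbT (-1.71) read 5.05, 5.26 and 7.21 in C24 at 10-11 d, and its difference was -1.32 without replicate 1 of this group, -1.42 without replicate 2 and -2.40 without replicate 3, with adjusted p = 0.0987, 0.118 and 6.79e-05 in limma. Its call was also lost without replicate 1 or 3 of Col-0 at 10-11 d and without replicate 2 of C24 at 12-13 d.

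**Figure D5:**
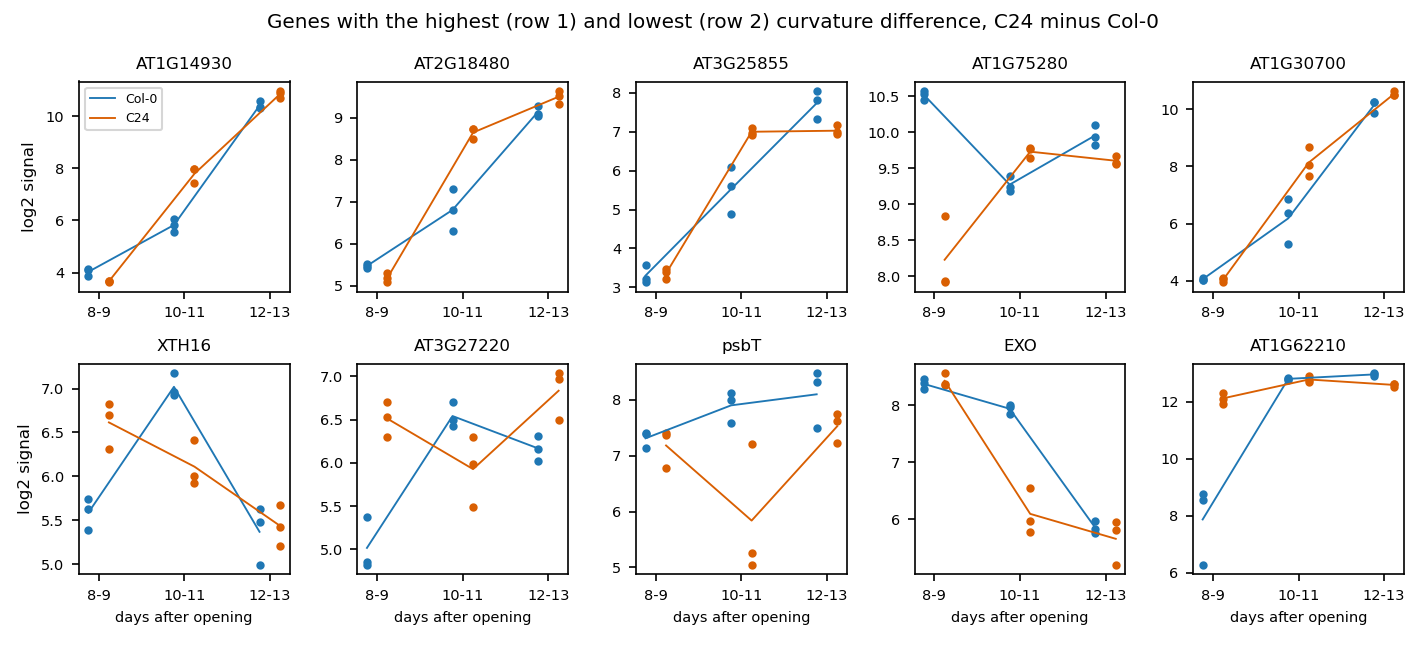
Log2 signal (y axis) of every array at the 3 stages (x axis, days after flower opening) for the 5 named genes with the highest curvature difference, C24 minus Col-0 (row 1), and the 5 with the lowest (row 2). Points are arrays, lines join group means of 3, blue is Col-0 and orange C24. AT1G14930 is 5.57 to 6.07 in Col-0 and 7.42 to 7.98 in C24 at 10-11 d, and XTH16 has its highest mean at 10-11 d in Col-0 only.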

How the data were processed

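Affymetrix arrays of 22810 probe sets were read from 18 seed pools. RMA, which corrects background, normalizes quantiles and summarizes probes, gave the deposited log2 values, per the submitters' processing notes. Its version is not given. RMA hides a change of all transcripts together. Arrays have no read depth, and their number limits the precision. From the deposited values, 64 control probe sets were left out and 22746 fitted with 6 group means on all arrays in limma 3.58.1 (R 4.3.3; eBayes with 12 residual degrees of freedom and a prior of 8.331), with Benjamini-Hochberg adjustment over all probe sets. Adjusted p-values come from this fit, which was tested on simulated data, unless the sentence names another setting or an array left out. The platform's gene table lists 14016 probe sets, 13513 with 1 gene and 503 with several; 8730 are not listed, and only probe sets with 1 gene are named.

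The genes named are the 10 highest and 10 lowest called averaged curvatures, the 10 and 10 highest and lowest whose middle arrays do not overlap the ends, the 5 and 5 in the accession difference and the 2 highest and 2 lowest members of each list. The list medians are set beside those of all probe sets and no list was tested. The comparison, the lists and the tests were chosen with earlier results of these data known; the suberin, TBL and calmodulin-like lists were added after their values were seen. Replicate numbers were not used as pairs in the main fit, since the titles give no pairing. Deviations of same-numbered arrays of different groups correlated between -0.156 and 0.242 (median 0.029). Those of arrays with different numbers lay between -0.255 and 0.192 (median -0.005). These overlapping ranges do not settle whether same-numbered arrays were handled together. List genes are called measured where they could be matched to a named probe set. The probe sets left unnamed may include other list members, so a missing match does not show that the array lacks the gene. No match was found for the lists of abscisic acid and gibberellin metabolism, embryo markers, MYB, ERF, named lipid transfer and cytosolic ribosomal protein genes. Alternatives were quantile normalization, scaling to reference genes, centring, a filter on dim probe sets, the replicate block, a trended robust eBayes, array weights and leaving out each array.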

Additional observations from a re-analysis of the deposited data

Results flagged for a closer look

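The curvature difference between the accessions, C24 minus Col-0, was called for 1172 probe sets (5.15%), and for 26 of the 185 genes picked for naming. The 5 highest and 5 lowest were picked because they were called in this difference, so their calls were fixed in advance. The difference was positive in AT1G14930 (1.93), AT2G18480 (1.80), AT3G25855 (1.80), AT1G75280 (1.78), AT1G30700 (1.75), GSTU26 (0.97), AT5G08250 (0.84), AT3G60730 (0.78), AT3G50990 (0.78), TBL30 (0.72), AT1G68850 (0.69), AT1G21540 (0.55) and TBL38 (0.47). It was negative in AT1G62210 (-1.96), EXO (-1.77), psbT (-1.71), AT3G27220 (-1.69), XTH16 (-1.46), CYP78A9 (-1.45), CML41 (-1.13), AT2G40435 (-0.93), APL4 (-0.70), WRKY22 (-0.55), COR47 (-0.54), APL3 (-0.45) and BZIP53 (-0.41). CYP78A9 was at 10.77, 10.27 and 11.07 in Col-0 and 8.68, 8.96 and 9.05 in C24 at 10-11 d, from 4.54 to 4.84 and 5.44 to 5.61 at 8-9 d. GSTU26, a glutathione transferase, read 6.25 to 6.37 in Col-0 and 9.37 to 9.63 in C24 at 10-11 d. C24 was also higher in the mean of both ends, so only part of this gap enters the difference of 0.97. The signs follow the titles, and the source name field would turn them all.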

How the results depend on the processing

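No called curvature, accession curvature, difference or step count changed by over 1.5 times under quantile normalization, scaling to the reference genes, centring, the dim filter, the replicate block, trended robust eBayes or array weights. Leaving out 1 array in turn gave 5372 to 6410 calls for the averaged curvature, 2735 to 4354 in Col-0, 3905 to 5424 in C24 and 600 to 1381 for the difference. It gave 10769 to 11684 for the first step, 7294 to 8383 for 10-11 d minus 12-13 d, 514 to 636 peaks and 254 to 347 troughs. At an adjusted p under 0.01 there were 395 peaks and 148 troughs, and with both sides at least 1 on the log2 scale 8 and 7, both stricter by construction. Calls of at least 1 numbered 266. Scaling to the reference genes moved the median averaged curvature from -0.01 to 0.03 and that of the first step from 0.01 to 0.12, and the split of the first step from 5440 higher and 6061 lower to 9063 and 4558, so directions of small curvatures depend on the scaling. The share of the rise reached by C24 moved from 73.1% to 75.1% with a minimum change of 2. The replicate block gave 6328 calls against 6246, and the titles do not say whether replicate numbers pair the arrays. Calls of psaB, psbN, AGL16, AT1G56190 and AT4G26410 were lost in 13 to 15 of 18 fits without 1 array, and petA fell to 0.31 without replicate 2 of C24 at 10-11 d. Dim probe sets near the floor limit the sizes; the cause of these changes was not tested.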
